A study of Homo sapiens with 2 samples.

Results

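F-box proteins are the substrate receptors of SCF ubiquitin ligases. To ask where NeuroD1 was bound at their genes in IMR-32 cells, the peaks of a NeuroD1 ChIP-seq library were placed on all protein-coding RefSeq genes (GRCh38.p14) whose symbol starts with FBXL, FBXO or FBXW, together with SKP2, CCNF, BTRC, SKP1, CUL1 and RBX1. The rule gave 69 of 20037 protein-coding genes. A gene was counted as bound when a peak lay inside it or within 3 kb of either end. IMR-32 is an established neuroblastoma cell line, here of wild-type genotype, and its labels give no treatment. Peaks came from the single NeuroD1 ChIP library (1 sample), while its input (1 sample) is not analysed here. Without a replicate, no difference could be tested between samples, and all intervals below are 95% exact intervals for counting error only. The sample label names an antibody to NeuroD1, whereas the written ChIP-seq procedure names an antibody to H3K27Ac, and the peaks are described as labelled.

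In an SCF ligase, the scaffold CUL1 holds the RING protein RBX1, which brings the ubiquitin-conjugating enzyme, and the adaptor SKP1, which holds the F-box protein. The F-box protein chooses the substrate, often by a phosphorylated motif. FBXW proteins read substrates with WD40 repeats, FBXL proteins with leucine-rich repeats, and FBXO proteins with other domains. FBXW7 is the receptor that marks N-Myc for degradation. NeuroD1 is a bHLH transcription factor of neuronal and endocrine cells that binds E-boxes, short sites of the form CANNTG.

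The ChIP list held 6183 peaks, with a median fold enrichment of 6.79 and a middle 50% from 5.79 to 8.68. Fold enrichment divides the summit pileup plus 1 by the background plus 1. How deeply the library was sequenced is unknown. The reads at each summit and the background were solved from the deposited fold enrichment and −log10 p, with a median of 17 reads. A peak list does not measure expression, so the cell type was not checked by marker genes. Near MYCN, which is amplified in this line, the 24 peaks within 0.5 Mb had a median implied background of 45.9, against 1.30 at the other peaks. No peak at an F-box or SCF core gene lay in such a region, since their backgrounds ran from 1.04 to 3.0.

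NeuroD1 peaks lay at 20 of the 69 F-box and SCF core genes, a share of 29.0% (18.7% to 41.2%). Of all protein-coding genes, 21.4% were bound by the same rule. Longer genes were bound more often, and the members are longer than most, with a median of 35.9 kb against 24.1 kb. When the protein-coding genes were weighted to the members' lengths over 10 bins of equal size, their share was 23.2%, or 16.0 genes of 69. The members' share was thus higher by 5.75 percentage points, and its interval spans the share of genes of like length. The difference is therefore not one that this number of genes can separate from the background.

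The 20 bound genes carried 22 peaks on 13 chromosomes. A single peak lay at 19 of them, and BTRC alone had 3, whereas 20.7% of all bound protein-coding genes had over 1 peak. The median fold enrichment of the 22 peaks was 7.71, from 4.34 at CCNF to 11.1 at FBXL7, against 6.79 over all peaks. Of these peaks, 4 lay above the upper quartile of the whole list and 6 below its lower quartile. Their summits were covered by 8 to 23 reads, and the intervals of all 22 fold enrichments overlap, so the order of the genes by height is loose. None reached the 95th percentile of the list, 13.8-fold.

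Gene starts were available for 54 of the 69 genes, from a table of RefSeq promoters. The 15 genes without an entry included the bound genes BTRC, FBXL15, FBXL18, FBXO16 and FBXO33. A peak summit lay within 1 kb of a listed start at 10 of the 54 genes, a share of 18.5% (9.25% to 31.4%), and the share among all protein-coding genes with a listed start was 15.4%. All 10 summits lay within 222 bases of a start, with a median of 85.0 bases, and 7 were upstream. Among the 2447 protein-coding genes bound at a start, the median distance was 107 bases, 78.7% were within 222 bases and 82.4% were upstream. The members' summits thus lay at distances common among promoter peaks of this library.

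The promoter sequences below show what lies under these peaks. Each is the part of the peak upstream of the most upstream listed start, written 5′ to 3′ on the strand of the gene, from RefSeq on GRCh38.p14, without bases inside another gene and within the 250 bases before the start that the table holds. The CCNF peak reaches beyond those bases, so only 106 bases of it are shown. Any match to CANNTG, which reads the same on both strands, is in capitals. FBXO11 and FBXO30 are not shown because a neighbouring transcript covers the bases, and FBXO5 because its peak lies inside the gene.
FBXL14, chr12:1594843-1595060, minus strand: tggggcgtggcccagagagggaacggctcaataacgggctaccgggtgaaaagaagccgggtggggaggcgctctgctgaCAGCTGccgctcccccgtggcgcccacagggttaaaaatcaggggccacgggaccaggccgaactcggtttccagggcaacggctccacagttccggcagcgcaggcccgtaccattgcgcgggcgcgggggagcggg
FBXO10, chr9:37576381-37576445, minus strand: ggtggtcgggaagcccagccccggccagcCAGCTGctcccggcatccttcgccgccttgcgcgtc
RBX1, chr22:40951189-40951334, plus strand: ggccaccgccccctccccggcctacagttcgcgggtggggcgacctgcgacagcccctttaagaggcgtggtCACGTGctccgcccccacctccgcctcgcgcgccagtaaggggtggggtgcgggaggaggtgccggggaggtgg
SKP1, chr5:134177019-134177170, minus strand: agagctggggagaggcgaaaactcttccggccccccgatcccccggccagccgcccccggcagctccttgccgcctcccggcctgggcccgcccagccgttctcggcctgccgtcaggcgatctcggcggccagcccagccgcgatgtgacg
CCNF, chr16:2429197-2429302, plus strand: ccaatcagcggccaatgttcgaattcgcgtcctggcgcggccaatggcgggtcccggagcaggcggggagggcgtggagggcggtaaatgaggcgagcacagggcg
FBXO24, chr7:100586130-100586327, plus strand: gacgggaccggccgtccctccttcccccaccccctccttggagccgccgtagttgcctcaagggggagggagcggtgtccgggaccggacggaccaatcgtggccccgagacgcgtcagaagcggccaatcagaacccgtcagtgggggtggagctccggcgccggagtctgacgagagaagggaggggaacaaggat
FBXW5, chr9:136944739-136944800, minus strand: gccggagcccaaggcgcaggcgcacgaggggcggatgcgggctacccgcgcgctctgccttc

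The E-boxes differed between these promoters. FBXL14 and FBXO10 each show a CAGCTG, the form bound by many neurogenic bHLH proteins, whereas the RBX1 promoter holds a CACGTG, the form bound by MYC and MAX. The centre of the RBX1 E-box lay 28 bases from the summit, and that of FBXL14 lay 95 bases away. In the whole 300-base window of FBXO10 there were 3 E-boxes, the nearest a CACATG 8 bases from the summit. The window of FBXO30 held a CAGCTG 23 bases from its summit. Beside the second listed start of FBXO5 there were 3 matches, the nearest 49 bases from the summit. No match was found in the windows of CCNF, FBXO24 and FBXO11, and those of SKP1 and FBXW5 held 1 each outside the called peak.

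E-boxes were about as frequent in member promoters as in others. A CANNTG was found in 33 of the 54 member promoters (61.1%, 46.9% to 74.1%), against 64.6% of the promoters of all protein-coding genes. The share was 6 of 9 for member promoters under a peak and 27 of 45 for those without one. Among all protein-coding genes, 57.1% of the 1899 promoters under a peak held a CANNTG and 65.6% of those without a peak. The median GC content of the same promoters was 67.7% and 61.7%, and its part in the difference was not tested. Where a summit fell well inside a promoter window, in 1496 windows of all genes, CANNTG occurred 2.86 times per kb within 25 bases of the summit and 2.98 times per kb in the rest of the window. For CAGCTG, or CAGATG on either strand, the rates were 1.23 and 0.980 per kb.

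Among the core subunits, SKP1 and RBX1 were bound at their starts and CUL1 was not bound. That is 2 of 3 genes, against 23.4% of genes of like length. The RBX1 peak (chr22:40951189-40951334) had 5.15-fold enrichment (−log10 q 6.28), with 20 reads (12.2 to 30.9). Its implied background of 3.0 was the highest among the members' peaks, shared with FBXO11. The SKP1 peak (chr5:134177019-134177170) was weaker, with 4.67-fold enrichment (−log10 q 2.49) and 10 reads (4.80 to 18.4), and it ranked 5689 of 6183 by fold enrichment. The SKP1 peak was lost at a −log10 q of at least 5, which left 1 of the 3 core genes, and neither peak overlapped its gene. The peak nearest to CUL1 lay 83.3 kb from the gene, with a fold enrichment of 4.58.

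Of the 11 FBXW genes including BTRC, 4 were bound (36.4%, 10.9% to 69.2%), against 25.4% of genes of like length. BTRC encodes β-TrCP, which degrades β-catenin, IκB and the APC/C inhibitor EMI1. Its 3 peaks all lay deep in the 203 kb gene and below the median height of the list. The first (chr10:101451657-101451839) had a fold enrichment of 5.97 with 12 reads (6.20 to 21.0), the second (chr10:101464232-101464396) 5.79 with 11 reads (5.49 to 19.7), and the third (chr10:101486046-101486347) 5.66 with 11 reads. Their −log10 q values were 4.81, 4.24 and 4.10, so BTRC lost its place among bound genes when a −log10 q of 5 was required. Among protein-coding genes in the longest bin, 5.84% had 3 or more peaks. FBXW11, the paralogue of BTRC with the same substrates, had no peak, and the nearest was 367 kb away.

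The other bound FBXW genes were FBXW5, FBXW8 and FBXW10. FBXW5, which limits centriole duplication by degrading SASS6, had a peak at its start (chr9:136944635-136944800) with 7.71-fold enrichment (−log10 q 8.34) and 15 reads (8.40 to 24.7). That peak also lay within 3 kb of C8G. FBXW8, which works with CUL7 as well as with CUL1, had a peak 59156 bases into the gene (chr12:116969970-116970149) with 6.77-fold enrichment (−log10 q 9.44) and 21 reads (13.0 to 32.1). The intervals of these heights overlap, and the places differ. The peak counted for FBXW10 (chr17:18781154-18781347, fold enrichment 5.31, −log10 q 3.31) lay 1939 bases past the gene, inside TVP23B. FBXW10 has a paralogue on the same chromosome, FBXW10B, whose nearest peak was 325 kb away, and whether reads map uniquely here was not tested. The FBXW count fell to 2 of 11 with a −log10 q of at least 5, without BTRC and FBXW10. That is 18.2%, against 20.5% of genes of like length. It also fell to 2 without peaks near another protein-coding gene, which left out FBXW5 and FBXW10. The share was then 18.2%, against 18.6% of genes of like length. The higher FBXW share therefore did not hold in either setting.

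No peak was called at FBXW7, the N-Myc receptor. The nearest peak lay 483 kb from the gene and had a fold enrichment of 3.93, although 36.2% of protein-coding genes in its length bin (152 to 2474 kb) were bound. FBXW7 spans 216 kb. Across the 49 members without a peak, the nearest peak lay 3.76 to 3289 kb away, with a median of 83.3 kb, and for 49.0% of them it was over 100 kb away. The weakest summits of the list, at the lowest background of 1.04, held 8 reads, so occupancy below that level would not appear as a peak.

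Of the 18 FBXL genes including SKP2, 6 were bound (33.3%, 13.3% to 59.0%), against 22.9% of genes of like length. They include the highest peak of all members. FBXL7, which degrades Aurora A and survivin, had a peak 99993 bases downstream of the nearest listed start in its 440 kb gene (chr5:15601320-15601523). It reached 11.1-fold enrichment (−log10 q 16.7) with 22 reads (13.8 to 33.3) over a background of 1.04, and it ranked 641 of 6183. FBXL18, which targets FBXL7, had a peak 23801 bases from its nearer end (chr7:5478122-5478316) with a fold enrichment of 7.14 and 17 reads (9.90 to 27.2). Both peaks lay far from the ends of their genes.

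Of the 12 FBXL genes (SKP2 included) with a listed start, FBXL14 alone had a peak there, a share of 8.33%. Among all protein-coding genes with a listed start, the share was 15.4%. The bound genes FBXL15 and FBXL18 have no listed start and could not be counted. FBXL14 degrades the EMT factor Snail and has been tied to MYC turnover. Its peak (chr12:1594738-1595060) had 9.74-fold enrichment (−log10 q 15.2) and 23 reads (14.6 to 34.5), and the summit lay 40 bases upstream of the start. FBXL15, which degrades SMURF1, is only 2.30 kb long, and its peak (chr10:102421061-102421301, fold enrichment 8.20, 16 reads) also lay within 3 kb of PSD and CUEDC2. The peak therefore cannot be assigned to FBXL15 alone.

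SKP2 and FBXL22 had peaks inside the gene. SKP2, which degrades the CDK inhibitor p27, had a peak 6289 bases downstream of its nearest listed start (chr5:36158283-36158495) with 8.13-fold enrichment (−log10 q 9.39) and 16 reads (9.15 to 26.0). FBXL22, known from the sarcomere, had a peak 3633 bases downstream of its start (chr15:63600891-63601133) with a fold enrichment of 7.88 and 19 reads (11.4 to 29.7), where the antisense transcript USP3-AS1 also lies within 3 kb. Neither gene had a peak within 1 kb of a listed start.

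Of the 37 FBXO genes including CCNF, 8 were bound (21.6%, 9.83% to 38.2%), near the 22.7% of genes of like length. Of these 8, 6 had the summit at a listed start. FBXO5 encodes EMI1, the inhibitor of the APC/C that lets cells enter S phase. Its peak (chr6:152983017-152983265) had 9.03-fold enrichment (−log10 q 14) and 23 reads (14.6 to 34.5), 88 bases upstream of the second listed start. CCNF encodes cyclin F, which degrades RRM2 and CP110. Its peak (chr16:2429094-2429302) was the weakest of all members, with 4.34-fold enrichment (−log10 q 1.62) and 8 reads (3.45 to 15.8).

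The other FBXO promoters had higher values than CCNF, with overlapping intervals. FBXO24 had a broad peak of 557 bases (chr7:100586107-100586663) with 9.75-fold enrichment (−log10 q 14.6) and 22 reads (13.8 to 33.3). That peak also overlapped LRCH4, so the 2 genes share it. FBXO30, tied to muscle atrophy, had a peak (chr6:145814698-145814882) with a fold enrichment of 8.33 and 20 reads (12.2 to 30.9). The FBXO30 peak also overlapped the noncoding gene EPM2A-DT. FBXO10, which degrades BCL2, had a peak (chr9:37576248-37576445) with a fold enrichment of 7.85 and 16 reads (9.15 to 26.0), its summit 10 bases inside the gene. FBXO11, which degrades BCL6 and CDT2, had a peak (chr2:47906538-47906719) with a fold enrichment of 5.15 and 20 reads over a background of 3.0, beside the noncoding gene LOC100506235.

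FBXO33 and FBXO16 had no listed start. The FBXO33 peak (chr14:39432210-39432633) covered the end of the gene at the higher coordinate, with 7.71-fold enrichment (−log10 q 8.34) and 15 reads. The FBXO16 peak (chr8:28490533-28490698) had its summit 370 bases beyond the end at the higher coordinate, with a fold enrichment of 8.06 and 18 reads (10.7 to 28.4). FBXO33, a receptor for YB-1, and FBXO16 thus had peaks near 1 end of the gene, and whether that end is the start was not determined here.

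Grouped by role, the cell cycle receptors held 5 bound genes of 9 (55.6%, 21.2% to 86.3%), namely BTRC, CCNF, FBXO5, FBXW8 and SKP2, against 27.2% of genes of like length. FBXW7, FBXW11, FBXO4 and FBXO31 were not bound. With a −log10 q of at least 5, BTRC and CCNF lost their calls and 3 of 9 were left (33.3%), against 21.9% of genes of like length. Among 7 receptors linked to MYC proteins, BTRC, FBXL14 and SKP2 were bound, whereas FBXW7 was not. These lists share BTRC, SKP2 and FBXW7. None of 8 receptors with roles in neurons was bound (0 of 8, upper limit 36.9%), against 22.8% of genes of like length. They were FBXO2, FBXO7, FBXO31, FBXO41, FBXO45, FBXL16, FBXL20 and FBXW7. The nearest peaks to FBXL16 and FBXO7 lay 3.76 kb and 4.82 kb from the gene, just outside the distance used. A limit of 10 kb counted both as bound, 2 of 8, against 26.7% of genes of like length at that limit. The 0 of 8 therefore depends on the distance used. None of the glycoprotein receptors FBXO2, FBXO6, FBXO17, FBXO27 and FBXO44 was bound (0 of 5, upper limit 52.2%), against 19.1% of genes of like length. All of these lists are short, their intervals include the shares of genes of like length, and none was tested. They were chosen with earlier results of these data known. The cell cycle list is not complete, since it leaves out FBXW5 and FBXL7. The neuronal list may also leave out bound genes, so its 0 of 8 depends on the genes chosen.

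SCF ligases are switched on by attachment of NEDD8 to the cullin and off by the COP9 signalosome, and CAND1 exchanges their receptors. Of 33 genes of this machinery, 10 were bound (30.3%, 15.6% to 48.7%), against 22.0% of genes of like length. All 10 had a summit within 1 kb of a listed start, compared with 10 of the 15 bound members that have a listed start and 69.6% of all such bound protein-coding genes. Unlike the members' peaks, those of the regulators and of the receptors below were not checked for other genes nearby, so some may be shared. CAND1 had the highest peak, with 9.78-fold enrichment (−log10 q 16.8), 156 bases upstream of its start. COP9 subunits were bound at COPS7B (8.96-fold), COPS2 (7.49-fold), COPS4 (7.23-fold) and GPS1 (5.40-fold), 4 of 10 genes, against 19.7% of genes of like length. Of the neddylation genes, UBE2F (7.71-fold) and DCUN1D4 (5.89-fold) were bound, 2 of 11 (18.2%), against 21.8% of genes of like length. The ubiquitin-conjugating enzyme UBE2D3 had peaks of 9.16-fold and 6.75-fold, ARIH1, a ligase that acts on substrates of neddylated cullins, a peak of 4.58-fold, and CKS1B, the cofactor of SKP2 for p27, a peak of 5.89-fold.

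The substrate receptors of the other cullins were bound at 14 of 81 genes (17.3%, 9.78% to 27.3%), against 22.3% of genes of like length. The KLHL receptors of CUL3 held 4 bound genes of 37 (10.8%, 3.03% to 25.4%), against 23.3% of genes of like length. Their highest peak was at KLHL25 (9.87-fold). The DCAF receptors of CUL4 held 6 of 19 (31.6%, 12.6% to 56.6%), against 22.0%, with the highest peak at DCAF10 (9.81-fold). The ASB and SOCS receptors of CUL2 and CUL5 held 4 of 25 (16.0%, 4.54% to 36.1%), against 21.2%. All 4 were SOCS genes, with the highest peak at SOCS5 (9.52-fold). The interval of the F-box and SCF core genes, 18.7% to 41.2%, overlapped that of each family, and no difference between the families was tested.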

How the data were processed

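ChIP-seq of NeuroD1 in IMR-32 cells gave 1 peak list from 1 library. Per the labels, the submitters' processing notes name BWA 0.7.17, MACS2 2.2.7 and hg38, whereas the peak names carry the word macs3. The use of the input and the q threshold are not given in the sources used here, and the largest q was 0.0414. The authors deposited fold enrichment, a ratio of pileup to local background at each summit with 1 added to both. The authors also deposited −log10 p and −log10 q values, a score derived from −log10 q, and a score that divides fold enrichment by peak width. Both scores were left unused.

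Genes were protein-coding genes of RefSeq GRCh38.p14 on the assembled chromosomes, the same build as hg38. That table has gene bodies without exons, so exons and introns are not given. Starts came from the RefSeq promoter table (250 bases before to 50 after a start), whose 300-base sequences run along the gene's strand, as checked in 109 of 109 overlapping pairs on chromosome 1. Reads and background followed from the Poisson tail that MACS uses. A weight of 0.98 per read was found from the file itself, since it returned the deposited −log10 p within 0.002 for 93.7% of a sample of peaks, against 17.1% for the next best weight from 0.8 to 1.1. The solver and the length weighting were tested on simulated data. Intervals are exact Clopper-Pearson for shares and exact Poisson for reads, and they cover counting error only.

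The members, gene lists and alternatives were chosen with earlier results of these data known. The rule for genes named with their values was every member with a peak, FBXW7, FBXW11, CUL1 and the core genes whatever their values, the regulators with a peak, and the highest peak of each other receptor family. Unbound genes of a role list, FBXW10B, the non-member F-box genes with another name and the other cullin core genes fall outside that rule. They were picked with their values known. The glycoprotein receptors and the distance of 25 bases around summits were chosen after values were seen. Scripts ran in Python 3.11.15 with scipy 1.17.1 for intervals, pandas 2.3.3 and numpy 2.4.6 for tables, and matplotlib 3.10.9 for plots.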

Additional observations from a re-analysis of the deposited data

How the results depend on the processing

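The number of F-box and SCF core genes with a peak was 20. The alternatives gave 14 to 23, all within 1.5 times of that. It was lowest, at 14, when the peak had to overlap the gene, which left out CCNF, FBXO11, FBXO16, FBXW10, RBX1 and SKP1. With a −log10 q of at least 5, BTRC, CCNF, FBXW10 and SKP1 were lost and 16 genes were left. Leaving out peaks within 3 kb of another protein-coding gene lost FBXL15, FBXO24, FBXW10 and FBXW5. With 10 kb in place of 3 kb, FBXL16, FBXO3 and FBXO7 were added. The difference from genes of like length was positive under every alternative run, from 2.49 to 7.32 percentage points. With length ignored, the difference from all protein-coding genes was 7.61 percentage points. All alternatives reuse the same peak list, so their shared sign is not separate evidence of a difference. The share of member promoters with an E-box was 61.1% for CANNTG and 25.9% for CAGCTG, or CAGATG on either strand, as the stricter motif makes possible. Alternatives were also run for the lists and families added after seeing the data. A −log10 q of at least 5 left 3 of 9 cell cycle, 2 of 11 FBXW and 1 of 3 core genes. The shares of genes of like length were then 21.9%, 20.5% and 18.7%. Peaks that overlap the gene left 5 of 37 FBXO and 0 of 3 core genes, against 17.1% and 17.5% of genes of like length. A fold enrichment of at least 5 left 1 of 3 core genes, against 21.3% of genes of like length. Counts of genes bound at the start, of regulators and of other receptors stayed within 1.5 times. No paired analysis was possible because a single ChIP library was made, without a replicate. The 8 to 23 reads behind each member's peak limit any ranking of the genes.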

Other observations

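Apart from SKP2, CCNF and BTRC, F-box genes that carry another name were not members. Of KDM2A, KDM2B, ECT2L, NCCRP1 and LMO7, 1 of 5 was bound, against 28.5% of genes of like length. KDM2B, a histone demethylase of a Polycomb complex, had 3 peaks in its 174 kb. The highest (chr12:121467275-121467705) had 9.31-fold enrichment (−log10 q 13.0), 91 bases upstream of a listed start, with 20 reads (12.2 to 30.9), and the other two had a fold enrichment of 4.58. Among the core subunits of the other cullin ligases, 4 of 11 genes were bound (36.4%, 10.9% to 69.2%), against 22.8% of genes of like length, namely CUL2 (11.1-fold), CUL4A (8.20-fold), ELOB (6.75-fold) and RNF7 (6.18-fold), all within 1 kb of a listed start. The CUL2 peak, 38 bases upstream of its start, had the same fold enrichment and −log10 q (16.7) as the FBXL7 peak, with 22 reads each. Peaks of KDM2B and of these core genes were not checked for other genes nearby.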
